A study of Mus musculus with 8 samples.

Results

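Array probes with higher signal in mouse aortic smooth muscle cells lacking Srf and lower signal after addition of Myocd are described here. A probe was included if, in the authors' table of normalized log2 values, its mean in Srf knockout cells exceeded that in wild-type cells by 1 or more and its mean with Myocd was lower than in wild-type cells by 1 or more. The members were thus selected on the measured values of all 6 cultured arrays. The rule kept 249 of the 42995 probes in the table (0.579%), where 6.22% met the knockout limit and 3.89% the Myocd limit. The study used one-colour arrays with probes for long non-coding RNAs and mRNAs. Its 3 cultured groups had 2 arrays each, namely wild-type aortic smooth muscle cells with an empty adenovirus (AdEmpty), Srf knockout cells with AdEmpty, and wild-type cells given a Myocd adenovirus (AdMyocd). All cultures were at passage 3 and received virus at a multiplicity of infection of 100 for 3 days, so the wild-type and knockout cells carried an adenovirus as well. Freshly isolated aorta and liver of wild-type mice were each measured on 1 array. How Srf was deleted, the age of the mice and whether replicates were separate cultures are not given in the labels, so the spread between replicates may be technical.

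Serum response factor, the product of Srf, binds CArG elements in the control regions of cytoskeletal, contractile and growth-response genes. Myocardin, the product of Myocd, is its coactivator in smooth and cardiac muscle and drives contractile gene expression. Myocardin and the ternary complex factors, which link growth signals to immediate early genes, compete for the same surface of serum response factor. Cultured smooth muscle cells lose part of the contractile state that they have in the vessel wall, and myocardin can restore much of it. The probes described here lie on the opposite side of the best-known targets of this pair, which need Srf and rise with myocardin.

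All 249 probes carry an identifier of the array maker that begins with ASMM10P, and none is paired with a gene, a transcript or a sequence in the sources used here. The results are therefore given by probe, and a long non-coding RNA cannot be told from an mRNA among them. The cultured cells and tissues could not be checked against marker genes, nor the knockout and the added virus against Srf and Myocd, because none of these genes was assigned a probe. The ASMM10P class made up 41881 of the 42995 probes in the table (97.4%). The other 1114 probes belong to the classes ASMM10UP (365 probes), humanlincRNA (424), mouselincRNA (277) and MM9LINCRNAEXON (48). Among these 1114, 26 met the knockout limit (2.33%) and 16 the Myocd limit (1.44%), and 0 met both. In the ASMM10P class, 2647 probes met the knockout limit (6.32%) and 1656 the Myocd limit (3.95%). The absence of the small classes was not tested, and with so few of their probes past either limit it is no result about those classes.

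The median signal of the members was 7.65 and 7.76 log2 units on the wild-type arrays, 9.93 and 9.71 on the knockout arrays, and 6.30 and 5.84 on the AdMyocd arrays. Aorta had a median of 9.37 and liver 7.07. Thus the tissue medians lay at different places on the cultured scale, aorta near the knockout arrays and liver between the AdMyocd and wild-type arrays. The spread over members was wide, with interquartile ranges from 6.40 to 11.46 in aorta and from 4.42 to 10.40 in liver. For single probes, aorta minus knockout cells had a median of -0.94 (quartiles -2.83 and 0.88), against -0.14 over all probes. The knockout values entered the rule. All tissue values come from 1 array each and have no replicate check. In bulk tissue, fewer cells of a type and less RNA per cell cannot be told apart.

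The size of the selected changes was uneven, larger for the knockout rise than for the Myocd fall. Since these values chose the members, they are given as a description. The knockout difference had a median of 1.91 log2 units and ran from 1.00 to 5.99, with 117 of 249 probes at 2 or more (4-fold) and 51 at 3 or more. The Myocd difference had a median of -1.39, and 40 probes were at -2 or less by their values. Of these 40, 21 were well above background on both AdMyocd arrays, 7 on 1 array and 12 on neither, so the size of the fall is not exact for the last 19. Among the 182 members well above background on both AdMyocd arrays, the median was -1.35 and the lowest value -2.98. By these values the knockout rise was larger than the Myocd fall for 171 of 249 probes (68.7%). At 2 or more in size in both directions were 25 probes (10.0%), while 117 were under 2 in both. Both differences are taken from the same wild-type arrays.

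Many members lay close to the limits. Within 0.2 log2 units of either limit were 103 of 249 probes (41.4%). The probe just inside the knockout limit, ASMM10P040362, stood at 1.002, and the probe just outside it, ASMM10P025487, at 0.999. For the Myocd limit, ASMM10P014922 was just inside, at the limit of -1 after rounding, and ASMM10P026640 just outside at -0.997. When the members were chosen again without each cultured array in turn, 226 to 301 probes met the rule, of which 186 to 239 were among the 249. In all 6 of these repeats, 137 of the 249 (55.0%) met the rule. The lowest overlap, 186, was found without wild-type replicate 2.

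Over all 42995 probes, limma called 10.8% higher in the knockout and 8.46% lower with Myocd (adjusted p under 0.05). Of the members, 235 were called higher in the knockout, 225 lower with Myocd and 220 in both directions (background for both, 1.52%), counts that the rule largely fixed. Both knockout arrays stood above and both AdMyocd arrays below both wild-type arrays for 245 of the 249 probes, an order found for 8.23% of all probes. This order also follows from the choice of members.

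Dim signal limits the Myocd side of the set. All 249 probes were well above background on both knockout arrays, as flagged by the scanner software. With AdMyocd, 182 were well above background on both arrays (73.1%), 16 on 1 array and 51 on neither (20.5%), while 92.1% of all probes in the table were so on both. In wild-type cells 234 members were well above background on both arrays, 11 on 1 array and 4 on neither. For a probe dim on every array of a group, only a lower bound of its fold can be given. To obtain it, each dim array's value was raised to a floor, the lowest signal that the software flagged as well above background on that array, if it lay below this floor. Some dim values lay above the floor of their array, such as 5.02 for ASMM10P052607 in liver against 4.58. The bounds, here and for the tissues, are therefore approximate. Of the 51 probes that were dim with AdMyocd, 4 were also dim in both wild-type arrays and have no fold, and 34 had a bound under 2-fold. Only 13 reached at least 2-fold at the bound, and the highest bound was at least 3.88-fold. Of the 16 probes dim on 1 AdMyocd array, 2 fell by less than 2-fold when that array was raised to its floor. Thus for 40 of the 249 probes a 2-fold fall with Myocd rests on signal that is not well above background, and 209 reached it with dim arrays at their floors. With the dim probes at their bounds the median Myocd difference was -1.29 over 245 probes. Among the 25 probes with both changes at 2 or more, 11 were well above background on both AdMyocd arrays and 8 on neither.

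The number of members also depended on how the signal was taken from the scanner files. With the scanner's median signal, normexp background correction, an added offset and quantile normalization, 97 probes met the rule, and 93 of these were among the 249. With normexp the 249 members had medians of 1.38 for the knockout difference and -0.89 for the Myocd difference. All 249 kept the sign of both differences, which their choice on the same arrays largely fixed. With the scanner's processed signal scaled to each array's 75th percentile, 285 probes met the rule and 241 of the members were kept.

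Replicates of the members differed by a median of 0.27 log2 units in wild-type cells, 0.17 in knockout cells and 0.29 with AdMyocd, against 0.26, 0.14 and 0.14 over all probes. The AdMyocd replicates were 1 log2 unit or more apart for 17 members (6.83%), against 2.05% of all probes. Replicate 1 was above replicate 2 for 202 of 249 members with AdMyocd and for 186 in the knockout, where over all probes the shares were 53.2% and 53.4%. In wild-type cells this held for 96 members, against 48.1% of all probes. Myocd replicate 2 thus stood lower for most members. Without it, 226 probes met the rule, and without Myocd replicate 1, 301. Slide 1 held the wild-type and knockout arrays and slide 2 those of AdMyocd, aorta and liver, so in the Myocd fall the virus and the slide cannot be told apart, whereas the knockout rise lay within 1 slide.

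Among members measured in both groups, ASMM10P019065 had the highest knockout difference. Its values were 7.05 and 7.76 in wild-type cells, 13.54 and 13.26 in the knockout, 6.02 and 5.72 with AdMyocd, 12.94 in aorta and 14.39 in liver. The knockout mean was 63.7-fold above the wild-type mean, the Myocd mean 2.89-fold below it, and no arrays of these groups overlapped. Both tissues were high for this probe, aorta 46.5-fold and liver 127-fold above wild-type cells. ASMM10P007856 came next, with 9.06 and 8.64 in wild-type cells, 14.38 and 14.55 in the knockout and 7.58 and 6.68 with AdMyocd. Its knockout mean was 49.1-fold above wild-type cells, but aorta stood at 7.75, 2.15-fold below them. Liver, at 4.98, was not well above background. The largest knockout rises thus came with opposite positions of the tissues.

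The lowest Myocd differences among members measured in both groups were those of ASMM10P031988 and ASMM10P014261. ASMM10P031988 stood at 9.10 and 9.35 in wild-type cells, 11.69 and 11.31 in the knockout and 6.93 and 5.56 with AdMyocd. The fall was 7.90-fold, and the AdMyocd mean of 6.24 had an SD of 0.97 (n = 2), wider than in the other groups. Neither tissue was well above background, so wild-type cells exceeded aorta by at least 38.4-fold and liver by at least 25.0-fold. The probe before it in the maker's numbering, ASMM10P031987, singled out after its values were seen, was also a member, with a knockout difference of 1.80 and a Myocd difference of -2.86. It too was not well above background in aorta or liver, at least 324-fold and 211-fold below wild-type cells. ASMM10P014261 had 11.01 and 11.25 in wild-type cells, 12.69 and 12.62 in the knockout and 8.31 and 8.15 with AdMyocd, a 7.46-fold fall with tight replicates. Liver was its brightest sample at 16.36, and aorta stood at 9.94, between the AdMyocd and wild-type arrays.

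Aorta and liver values did not enter the rule, but they did enter the authors' table, whose probes all passed the background flag on at least 4 of 8 arrays. Of the members, 15 passed that filter only with the help of aorta or liver, and the values without them follow. Aorta exceeded liver for 156 of 249 probes (62.7%), against 45.7% of all probes, and the median difference was 0.99 log2 units against -0.15. The quartiles were -1.03 and 3.35 for the members and -1.19 and 1.26 for all probes. At least 4-fold higher in aorta than in liver, bounds included, were 87 members (34.9%), where the background was 14.6%. At least 4-fold lower in aorta were 32 members (12.9%), against 11.1%. The share on the liver side was near that of all probes, while the share on the aorta side was above it. Among the 234 members well above background on 4 or more cultured arrays, 84 were aorta-high (35.9%) and 27 liver-high (11.5%), with a median of 0.95. The same filter on the whole table gave 14.9%, 10.7% and a median of -0.13. With 1 array per tissue no test of this difference was possible.

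Many of the aorta-high probes were dim in liver. In aorta 224 of the 249 members were well above background, against 91.9% of all probes, and in liver 172 (69.1%), against 81.2%. Of the members, 165 were well above background in both tissues, 59 in aorta but not liver, 7 in liver but not aorta and 18 in neither. Among the 87 aorta-high probes, liver was at its bound for 32. Restricted to probes well above background in both tissues, the median of aorta minus liver was 0.50 over 165 members and -0.42 over 33737 probes of the table. Of these 165 members, 55 were at least 4-fold higher in aorta. The matching share of the table was not counted, so no excess can be read from this number. With normexp the median over all members was 0.52, against -0.08 over all probes. Before scaling, liver had the lower signal, with a 75th percentile of processed intensity of 167 against 371 in aorta.

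The highest aorta values against liver, among members measured in both, were those of ASMM10P052089 and ASMM10P023553. ASMM10P052089 stood at 6.96 and 7.07 in wild-type cells, 11.60 and 11.23 in the knockout, 5.14 and 4.80 with AdMyocd, 15.46 in aorta and 6.37 in liver. Aorta was 546-fold above liver and 350-fold above wild-type cells, and also above both knockout arrays. ASMM10P023553 had 5.41 and 5.45 in wild-type cells, 7.09 and 6.58 in the knockout, 4.40 and 4.31 with AdMyocd, 12.44 in aorta and 4.64 in liver. Here aorta was 223-fold above liver and 129-fold above wild-type cells. In both probes liver lay between the AdMyocd and wild-type arrays, so the high value was that of aorta.

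The lowest values of aorta against liver were those of ASMM10P021680 and ASMM10P050384. ASMM10P021680 had 6.72 and 7.20 in wild-type cells, 8.31 and 8.25 in the knockout, 5.45 and 5.52 with AdMyocd, 4.72 in aorta and 13.95 in liver, with liver 600-fold above aorta. Its aorta value lay below both AdMyocd arrays. ASMM10P050384 had 4.22 and 4.87 in wild-type cells, 9.14 and 8.69 in the knockout, 7.68 in aorta and 16.56 in liver. It was not well above background with AdMyocd, where its fall was at least 1.38-fold. Liver was 472-fold above its aorta, and aorta in turn was 8.77-fold above wild-type cells. The pair thus differs in aorta, below cultured cells in the first and above wild-type cells in the second.

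Against wild-type cells, which also entered the rule, aorta was at least 4-fold higher for 91 members (36.5%, background 7.99%) and at least 4-fold lower for 28 (11.2%, background 9.47%). The median of aorta minus wild-type cells was 1.11 log2 units, against -0.13 over all probes. Without wild-type replicate 1 or 2 the members chosen again gave 0.85 and 0.99, and with normexp the 249 members gave 0.70. Liver was at least 4-fold higher than wild-type cells for 66 members (26.5%, background 15.5%) and at least 4-fold lower for 68 (27.3%, background 19.6%), with a median of -0.78 against 0.20. Liver was thus as often high as low, while aorta was high more often. Both tissues were at least 4-fold above wild-type cells for 44 members (17.7%, against 3.84% of all probes) and both at least 4-fold below them for 20 (8.03%, against 7.42%). Slide differed between the tissues and the wild-type cells, and its part in these counts was not tested.

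Placed on the cultured scale, aorta was spread over the whole of it. It lay above both knockout arrays for 90 members (36.1%, against 40.3% of all probes) and below both AdMyocd arrays for 41 (16.5%, against 51.3%). These shares are not alike in construction, since the rule spreads the cultured groups of the members apart. The same holds for the nearest groups given next, for aorta and for liver. For every member the rule makes the knockout mean the highest, so any tissue value above it counts as nearest the knockout. Likewise, any value below the AdMyocd mean counts as nearest AdMyocd. The nearest cultured group to aorta was the knockout for 129 members (51.8%, against 46.9% of all probes), AdMyocd for 68 (27.3%, against 30.5%) and wild-type for 52 (20.9%, against 22.6%). Among the 224 members well above background in aorta, the shares were 57.6%, 20.5% and 21.9% in the same order. All probes well above background in aorta had 46.8%, 30.2% and 23.0%. Of these 224 members, 24 lay below both AdMyocd arrays (10.7%, against 48.0%). For liver, 77 members were not well above background and so could not be placed exactly. Among the other 172, the nearest group was the knockout for 84 (48.8%), AdMyocd for 53 (30.8%) and wild-type for 35 (20.3%), against 41.4%, 33.4% and 25.2% of all probes well above background in liver.

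By tissue pattern, 3 kinds of member can be described. The 87 aorta-high members had a median of 10.50 in aorta and 5.62 in liver, and of 8.53 in wild-type cells, 10.74 in the knockout and 7.05 with AdMyocd. Their aorta median thus lay near that of the knockout cells and their liver median below that of the AdMyocd cells. Probe by probe, aorta was above both knockout arrays for 41 of the 87 and below both AdMyocd arrays for 7. Aorta was at least 4-fold above wild-type cells for 43 of these 87 and at least 4-fold below for 4. Probes high in aorta against both liver and wild-type cells made up 17.3% of all members and 2.91% of the table.

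The 32 liver-high members had a median of 14.45 in liver and 9.67 in aorta, against 6.82 in wild-type cells. For 30 of them liver was at least 4-fold above wild-type cells, and for 16 aorta was so too. These are therefore probes whose signal in both tissues was often above that in cultured wild-type cells. The remaining 130 members held 81 probes measured in both tissues and less than 4-fold apart, 27 measured only in aorta and 4 only in liver with bounds under 4-fold, and 18 dim in both. They had medians of 6.83 in aorta, 7.15 in liver and 7.06 in wild-type cells. Aorta was at least 4-fold above wild-type cells for 32 of them and below for 22. The median knockout difference was 2.05, 2.20 and 1.80 in the aorta-high, liver-high and remaining members, and the median Myocd difference was -1.31, -1.43 and -1.44.

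The 18 members that were not well above background in either tissue were so on both wild-type and both knockout arrays. Several of them were dim with AdMyocd. Their wild-type means ran from 4.60 to 12.30, with a median of 6.04. For 10 of them wild-type cells exceeded aorta by at least 4-fold at the bound, and for 6 they exceeded liver by as much. The other bounds were under 4-fold.

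To set the tissue values beside the size of the selected changes, members were ordered by each change and divided into 3 equal parts of 83. In the part with the largest knockout rises (2.39 to 5.99), aorta was at least 4-fold above wild-type cells for 41, and the median of aorta minus wild-type cells was 2.00. The parts with middle and smallest rises had 26 and 24 such probes, with medians of 0.93 and 0.74. These parts differed less in aorta against liver, with medians of 1.15, 1.07 and 0.86 from the largest to the smallest rise. By the Myocd fall the order ran the other way, with a median of aorta minus liver of 0.30 for the largest falls (1.60 or more by their values, dim probes included), 1.43 for the middle and 1.74 for the smallest. In the same order 25, 28 and 34 members were aorta-high and 12, 9 and 11 liver-high. The medians of aorta minus liver include probes dim in either tissue or in both. The 25 probes with both changes at 2 or more had a median of aorta minus liver of -0.11 and of aorta minus wild-type cells of 2.70, with 8 aorta-high and 6 liver-high. The value of -0.11 is that of probes dim in both tissues, such as ASMM10P028623 (2.33 in aorta, 2.44 in liver), and measures no tissue difference. None of these differences between members was tested, and aorta minus wild-type cells shares the wild-type arrays with the changes used to order them.

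Other sets cut from the same table are given beside the members. The opposite set, lower in the knockout and higher with Myocd by 1 or more, held 318 probes. It had a median aorta minus liver of 2.02, with 41.8% at least 4-fold higher in aorta and 5.03% higher in liver, against 34.9% and 12.9% for the members. Against wild-type cells its aorta median was -0.66, while that of the members was 1.11. The 1239 probes that rose by 1 or more in the knockout and stayed within 0.5 of wild-type cells with Myocd had 22.5% aorta-high and 13.0% liver-high probes and an aorta median of 1.65 against wild-type cells. The 590 probes that fell by 1 or more with Myocd and stayed within 0.5 in the knockout had 23.2% and 14.9%, and an aorta median of -0.94 against wild-type cells. In aorta against liver the share of aorta-high members thus lay between that of the opposite set and those of the other sets, and none of these differences was tested.

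In the maker's numbering, 27 of the 249 members (10.8%) had another member directly beside them, forming 14 adjacent pairs. Members made up 0.595% of all ASMM10P probes in the table. Whether members lay together more often than other probes was not tested. Adjacent probes may share a transcript, which the identifiers do not tell. In 9 of the 14 pairs aorta minus liver had the same sign in both probes, against 54.4% of the 31302 adjacent pairs in the table. The 345 neighbours in the table that were not members had median differences of 0.02 in the knockout and -0.07 with Myocd, and 98 of them (28.4%) were above wild-type cells in the knockout and below them with Myocd by any amount, against 20.2% of all probes outside the set.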

How the data were processed

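RNA from cultured cells (6 arrays) and 2 tissues (1 array each) was hybridised to one-colour arrays. The authors deposited Feature Extraction files with an intensity per spot (version 11.0.1.1, per the file headers) and a table of log2 values for 42995 probes, each well above background on 4 or more arrays. The sources used here do not state how the table was normalized. The columns correlated with log2 processed intensity of the same arrays (Pearson's r across probes from 0.997 to 1.00) in the same direction, and the median value was 7.27 on each cultured array, 7.21 for aorta and 7.16 for liver. Because the rule is defined on this table, it was the main source, and scanner values served as alternatives and for background flags.

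Group means were compared over all probes with limma 3.58.1 in R 4.3.3 (lmFit, eBayes, Benjamini-Hochberg, 3 residual degrees of freedom), checked on simulated data. These calls serve as background only. On cultured arrays, 68.2% to 74.7% of the array's probes passed the background flag. No spot was saturated, and the number of arrays limits the precision. Members, named probes and comparison sets were chosen with earlier results of these data known. Named probes were at most 2 for each extreme of the knockout, Myocd and tissue differences, among probes well above background on every array compared, and those nearest the limits. Planned marker and gene lists could not be used without gene names. For normexp the median signal replaced the planned mean signal.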

Additional observations from a re-analysis of the deposited data

How the results depend on the processing

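The number of members, 249 by the authors' table, was 257 with quantile normalization of the scanner signal, and it fell to 97 with normexp. Leaving out each cultured array gave 226 to 301. The median of aorta minus liver (0.994) was 0.776 with the 75th percentile scaling, 0.515 with normexp, 1.237 for members well above background on all 6 cultured arrays and 0.495 for those well above background in both samples, and 0.826 to 1.108 without single arrays. The median of aorta minus wild-type cells (1.110) was 1.203, 0.704, 0.891 and 1.392 in the same order, 0.852 to 1.153 without single arrays, 0.898 where the Myocd fall counted at its bound, and 0.937 for members well above background on 4 or more cultured arrays. The last 2 alternatives were chosen after seeing the data. Both medians stayed above 0 in every setting run. Over all probes, aorta minus liver moved with the scaling too, so 0 is not a common reference. Its median over all probes was -0.15 by the authors' table and -0.17 with quantile normalization. With the 75th percentile scaling it was -0.43, and with normexp -0.08. The 87 aorta-high members were 55 among probes well above background in both tissues and 69 to 109 without single arrays, and the 32 liver-high members were 18 among probes well above background on all 6 cultured arrays and 26 to 34 without single arrays. Both filters leave fewer probes to count, 165 and 182 members, but the 2 kinds did not fall alike. Among the 165 measured in both tissues 29 were liver-high, and among the 182 on all 6 cultured arrays 72 were aorta-high.

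Limma called 9066 probes for the knockout and 6970 for Myocd. With the replicate number as a block the counts were 6024 and 4372, and with only the groups compared 5925 and 3645. Without single arrays they ran from 2298 to 13067 and from 1667 to 9412. Deviations of arrays with the same number correlated at -0.21, -0.04 and 0.06 between groups. These correlations cannot decide whether the numbers pair the samples, because each group gave only a single difference between replicates. Of the 8 named extremes, none changed sign under the 3 scalings, which their choice as extremes on the same arrays largely fixed. With normexp all 8 were smaller in size, such as aorta minus liver of ASMM10P023553 (6.03 against 7.80) and of ASMM10P021680 (-7.53 against -9.23). Their printed folds thus depend on the processing. A Myocd fall could not be measured below the floor of the arrays.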
